A study of Rattus norvegicus with 18 samples.

Results

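The comparison described here sets rat hepatocytes exposed to the compound coded CDMB against hepatocytes given the solvent DMSO alone, the control coded VC_1. It uses 6 of the 18 arrays in the series, namely the 3 CDMB arrays and the 3 VC_1 arrays, picked by their labels. All groups were cryopreserved primary hepatocytes of male Sprague Dawley rats, plated and precultured for 24 h, and then exposed for 24 h. CDMB cultures received 300 µM of the compound in DMSO. The remaining groups were CDEB, DDMB and DDEB at the same concentration and time, and a further DMSO control, VC_2. The design text describes 3 independent experiments per condition, but nothing in the labels tells whether different animals were used. The spread behind the SE and p-values of the main fit came from all 18 arrays, with 12 residual degrees of freedom. The p-values therefore reflect only how far the cultures of the whole series varied, and the fit counts VC_1 and VC_2 as independent. A probe was kept when all 3 arrays of CDMB, or all 3 of VC_1, measured it well above background, which left 20902 of the genes and transcripts on the array for testing. Of these, 10586 carried a plain gene symbol and 19910 lay well above background on all 6 arrays.

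Hepatocytes carry out most of the body's drug metabolism, make the plasma proteins and supply glucose and urea. Foreign chemicals can act on them through nuclear receptors such as CAR, PXR and PPARα and the aryl hydrocarbon receptor AhR, which switch on cytochromes P450 and lipid-oxidising enzymes, or through damage responses such as the heat shock, endoplasmic reticulum stress, NRF2 and p53 pathways. In culture, hepatocytes also lose part of their liver-specific expression and can gain cytoskeletal, matrix and cell cycle transcripts.

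Levels are log2 signals relative to the array's own 75th percentile, so that a level of 0 equals that percentile and a difference of 1 is a doubling. The 75th percentile itself was 482 to 505 intensity units on the CDMB arrays and 532 to 640 on the VC_1 arrays, and 61.9 to 62.1% of CDMB spots and 63.0 to 63.7% of VC_1 spots lay well above background. CDMB was hybridised together with CDEB on 1 slide, and VC_1 together with DDMB on another, so that for CDMB against VC_1 the compound and the slide cannot be told apart. Added control RNAs differed between the groups too. The signal of a dim spike-in was 1.24 to 1.30% of that of a bright one with CDMB and 1.24 to 1.29% with CDEB. It was 1.83 to 2.04% with DDMB and 2.01 to 2.09% in VC_1. The ratio also differed within a further slide, at 1.73 to 1.82% in VC_2 and 1.07 and 1.18% in DDEB replicates 1 and 2. The cause of these differences was not tested. A single control array stood apart. VC_1 replicate 3 correlated at 0.986 to 0.993 with the other 5 arrays, which correlated at 0.996 or more with each other. It lay a median of 0.201 (log2) from the mean of VC_1 replicates 1 and 2 over all genes, against 0.109 to 0.131 for the CDMB arrays. VC_2 replicate 3 deviated from its own group in the same genes, and the deviations of same-numbered VC_1 and VC_2 arrays correlated at 0.532 to 0.847 across genes, which are not independent replicates. The labels do not say whether same-numbered controls shared cultures. Differences are therefore given with all 3 VC_1 arrays and, where they matter, without VC_1 replicate 3.

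The labelled cell type was borne out by its markers, with all 35 hepatocyte identity genes above background. Their summed signal was 5698 to 5914 times the 75th percentile on CDMB arrays and 4308 to 5687 times on VC_1 arrays. The lowest of these was VC_1 replicate 3, with 5687 and 5374 on VC_1 replicates 1 and 2. Of the markers of other cells, those tested were 8 of 14 for stellate, 5 of 14 for Kupffer, 5 of 12 for endothelial, 7 of 11 for bile duct, 3 of 12 for lymphoid and 3 of 9 for blood cells, with 0 called. Defining genes such as Col1a1, Lrat, Csf1r, Adgre1, Pecam1, Stab2, Krt19 and Cd3e did not reach that level in either group, while others of the same lists were above background and tested, such as Col1a2, Col3a1 and Dcn of stellate cells, Krt7 and Sox9 of bile ducts, Clec4f of Kupffer cells, Cdh5 of endothelium and Cd3d of lymphoid cells. The tested stellate markers summed to 1.26 to 1.35 with CDMB and 1.36 to 2.01 in VC_1, and the Kupffer markers to 17.8 to 19.3 with CDMB and 13.8 to 17.8 in VC_1. The 2.01 and the 13.8 were both those of VC_1 replicate 3. The part of other cells in the differences below was not tested, and in whole cultures fewer cells of a type and less RNA per cell cannot be told apart.

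Few genes passed the adjusted test of CDMB-exposed hepatocytes against the DMSO control. Before adjustment, 2827 of 20902 genes had a limma p under 0.05, so a low count of passing genes does not show that few differ. At a Benjamini-Hochberg adjusted p under 0.05 in limma, 9 of 20902 genes passed, a background of 0.0431%, with 7 higher (0.0335%) and 2 lower (0.00957%). Only 2 of the 9 have a plain symbol. These are Hspb1, which rose, and Nefm, which fell, a small heat shock protein and a neurofilament subunit. The count was 0 when only the 6 CDMB and VC_1 arrays were fitted, when the slide entered as a random block, and without CDMB replicate 2, VC_1 replicate 2 or VC_1 replicate 3, and it was 1 to 5 without CDMB replicate 3, CDMB replicate 1 or VC_1 replicate 1.

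Hspb1 encodes HSP27, a small chaperone that binds unfolding proteins and actin filaments and is a target of the heat shock factor HSF1. Its level was 4.47, 4.61 and 4.66 with CDMB, against 4.01, 3.91 and 3.64 in VC_1. Every CDMB array lay above every VC_1 array. The means were 4.58 ± 0.09 with CDMB and 3.86 ± 0.19 in VC_1 (SD, n = 3 each), a difference of 0.72 ± 0.11 (SE; limma adjusted p = 0.0272), or 1.65-fold. Without VC_1 replicate 3 the difference was 0.62 and the limma adjusted p was 0.0991. The 250 bases before its start are shown because they hold matches to the heat shock element, the sequence that HSF1 binds, searched on both strands as GAANNTTC, which reads the same on both. The matches are in capitals, and the sequence is RefSeq's for GRCr8, chr12:26432302-26432551, minus strand, written 5′ to 3′ towards the start.
Hspb1: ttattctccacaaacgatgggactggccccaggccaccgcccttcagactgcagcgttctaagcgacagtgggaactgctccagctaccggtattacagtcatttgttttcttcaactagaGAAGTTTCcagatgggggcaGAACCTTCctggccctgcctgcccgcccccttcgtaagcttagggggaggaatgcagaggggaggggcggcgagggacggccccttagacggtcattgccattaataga
Both matches lie in the stretch that begins 129 bases before the start. Such a match occurred in 7.23% of 33469 promoters of this length and in 10 of the 27 heat shock list promoters found (37.0%). That list was made up of known heat shock and folding genes, so its share says nothing about CDMB. A match describes letters, not binding.

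The heat shock and folding list, with Hspb1 counted in, showed no shared direction. Of 31 members tested, 1 passed, Hspb1 itself (0.0431% of all genes passed). The list's median difference was 0.01, against 0.01 over all genes. The 3 CDMB arrays lay wholly above the 3 VC_1 arrays for 9 members and wholly below for 5, where 13.7% and 12.3% of all genes did so. Hspa1a, the inducible HSP70, had levels of 2.81, 3.03 and 2.99 with CDMB, against 2.67, 2.75 and 1.59 in VC_1. Its groups did not overlap, but VC_1 replicate 3 lay far below the rest, and the difference of 0.61 was 0.23 without that array. Fkbp4, an HSP90 co-chaperone, was 0.34 higher with all arrays and 0.21 higher without VC_1 replicate 3, and Hspa4, an HSP110-type exchange factor, was 0.29 lower. None of the 3 passed the test.

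Nefm encodes the medium neurofilament chain, a neuronal intermediate filament. Its level was -5.57, -5.09 and -4.50 with CDMB, against -3.49, -3.38 and -3.11 in VC_1. The groups did not overlap, and only 1 of the 3 CDMB arrays measured it well above background. The difference was -1.72 ± 0.25 (SE, n = 3 each, limma adjusted p = 0.0204). Without VC_1 replicate 3 it was -1.62 with a limma adjusted p of 0.0991. A second probe of the gene gave -1.65, but at still dimmer means of -6.59 with CDMB and -4.94 in VC_1. The size changed with the background correction, and with normexp correction the difference was -0.42. The cause of that change was not tested.

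Its neighbour on chromosome 15, Nefl, with 0 protein-coding genes between them, encodes the light chain. Nefl had levels of -4.36, -4.11 and -4.26 with CDMB, against -2.66, -2.38 and -1.85 in VC_1. Here too the groups were apart, by -1.95 ± 0.38 (SE, n = 3 each), although the limma adjusted p of 0.101 missed the threshold. Of the 10 intermediate filament genes tested, 1 passed (0.0431% of all genes did), 1 had CDMB wholly above VC_1 and 3 wholly below (13.7% and 12.3% of all genes), and the median difference was 0.02. Synm, which encodes synemin, was 0.64 lower.

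The 7 called transcripts without a plain symbol comprised 6 higher and 1 lower, with limma adjusted p of 0.0131 to 0.0418. XR_354923 stood at -1.33, -1.39 and -1.29 with CDMB, against -1.95, -1.95 and -2.01 in VC_1, a difference of 0.64 ± 0.07 (SE). CR466498 stood at 0.14, 0.23 and 0.44 with CDMB, against -0.47, -0.33 and -0.67 in VC_1, a difference of 0.77 ± 0.10 (SE). XM_006243027, the transcript that fell, stood at 0.46, 0.49 and 0.43 with CDMB, against 0.98, 1.01 and 0.95 in VC_1, a difference of -0.52 ± 0.07 (SE). In all 3 the groups did not overlap, and for XR_354923 and XM_006243027 the VC_1 arrays lay close together.

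The values of these genes in CDEB, on CDMB's slide, and in DDMB, on VC_1's slide, fell into different patterns. Hspb1 stood at 4.17, 4.16 and 4.25 with CDEB and at 4.75, 4.54 and 4.64 with DDMB, so that CDMB and DDMB lay together although on different slides. Nefm likewise stood at -4.18, -4.08 and -3.76 with CDEB and at -4.91, -4.99 and -5.34 with DDMB. In both genes every CDEB array also lay on the CDMB side of VC_1, with mean differences from VC_1 of 0.34 for Hspb1 and -0.68 for Nefm. By contrast XR_354923 stood at -1.40, -1.35 and -1.41 with CDEB and at -1.99, -2.13 and -2.18 with DDMB, where the arrays divided by slide. XM_006243027 did not divide so, at 0.72, 0.70 and 0.83 with CDEB and 0.24, 0.34 and 0.11 with DDMB. There DDMB lay farther below VC_1 than CDMB did. Over the 7 called transcripts without a symbol, the mean DDMB difference from VC_1 ranged from -0.75 to 0.71. Of these 7, 5 also passed for CDMB against DDMB, where 0.842% of all genes did. For CDMB against CDEB 0 of them passed, but so did 0.00% of all genes. Hspb1 and Nefm passed in neither. These comparisons share the CDMB arrays, and the part of the slide was not tested.

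**Figure D1:**
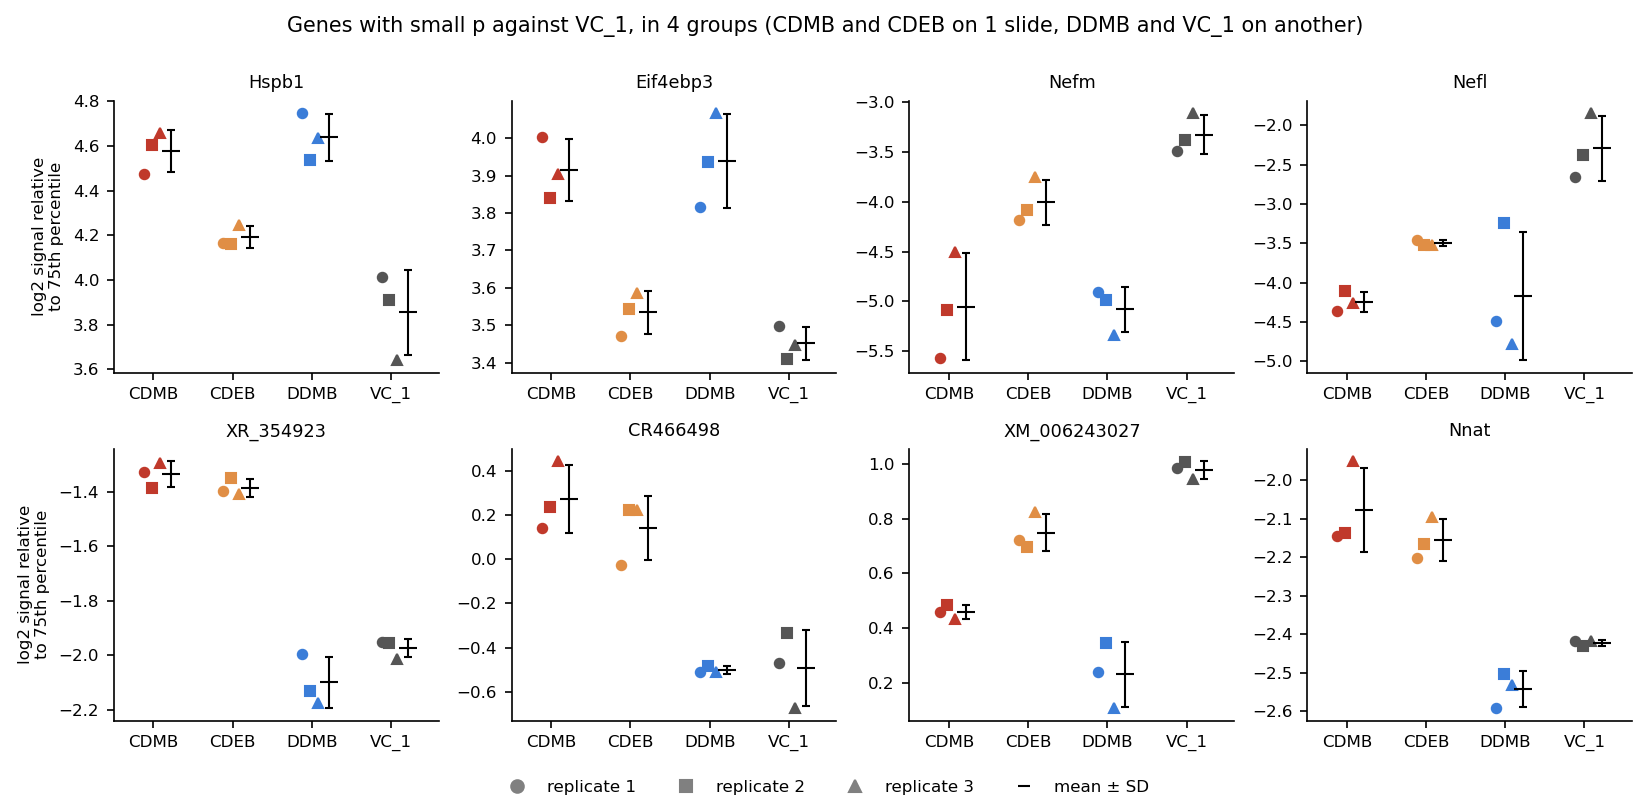
Log2 signal relative to the array's 75th percentile (vertical axes) for 8 genes and transcripts on each CDMB, CDEB, DDMB and VC_1 array, with the mean ± SD of 3 arrays. For Hspb1 and Eif4ebp3 the CDMB and DDMB arrays lie above the CDEB and VC_1 arrays, and for Nefm CDMB and DDMB lie below both. In Hspb1 and Nefm the CDEB arrays lie between those of VC_1 and CDMB. For XR_354923, CR466498 and Nnat the CDMB and CDEB arrays lie above the DDMB and VC_1 arrays.

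Several named genes lay just past the threshold, and none of them is called. Eif4ebp3 encodes a protein that binds the cap-binding factor eIF4E and restrains translation. It had levels of 4.00, 3.84 and 3.90 with CDMB, against 3.50, 3.41 and 3.45 in VC_1, a difference of 0.46 ± 0.08 (SE, n = 3 each; limma adjusted p = 0.059). Its level was 3.47, 3.54 and 3.59 with CDEB and 3.82, 3.94 and 4.07 with DDMB, the order seen for Hspb1. Rpe, the ribulose-phosphate epimerase of the pentose phosphate pathway, had 1.27, 1.32 and 1.34 with CDMB, against 0.98, 0.93 and 0.92 in VC_1. Emc1, a subunit of the complex that inserts membrane proteins into the endoplasmic reticulum, had -0.20, -0.21 and -0.08 with CDMB, against -0.62, -0.53 and -0.77 in VC_1. Both showed tight and separate groups, 0.36 and 0.48 apart, each with a limma adjusted p of 0.059. Scfd2, Zbtb1 and Nnat were 0.48, 0.42 and 0.34 higher with CDMB and C8h15orf61 and Spetex2f were 0.37 and 0.39 lower, with limma adjusted p of 0.059 to 0.072. A second probe gave the opposite direction for Zbtb1 (-0.29) and Spetex2f (0.56), so their directions are uncertain. Nnat, which encodes neuronatin, was among those whose CDMB and CDEB arrays lay together.

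Most large differences between the groups rested on VC_1 replicate 3. CDMB and VC_1 did not overlap for 26.0% of all genes, and 752 genes (3.60%) also differed by at least 1.5-fold, 306 higher (1.46%) and 446 lower (2.13%). VC_1 replicate 3 was the control array farthest from the CDMB mean in 657 of these 752 genes (87.4%), against 64.5% of all genes tested. Without it, 310 of the 752 still differed by at least 1.5-fold, and their median absolute difference was 0.534 in place of 0.775. The 15 highest and 15 lowest named differences all had that array as the farthest. Without it, 6 of the 15 highest and 14 of the 15 lowest still differed by at least 1.5-fold.

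Among the highest differences, Npy, the precursor of neuropeptide Y, had levels of 4.49, 4.41 and 4.28 with CDMB, against 3.30, 2.23 and -1.77 in VC_1. Its 3 control arrays spanned over 5 log2 units, and the difference of 3.14 ± 1.60 (SE, n = 3 each) had a limma adjusted p of 0.404. Cyp2e1, the P450 that oxidises ethanol and small solvents, had 2.29, 2.00 and 1.80 with CDMB, against 1.74, 1.12 and -1.10 in VC_1. Here the difference was 1.44 with all arrays and 0.60 without VC_1 replicate 3. Cyp3a2 was 1.16 higher with all arrays and 0.56 without that one, and Cyp1a1, an AhR target, 1.09 and 0.42. G6pc1, which releases free glucose from the liver, had 1.02, 1.12 and 0.90 with CDMB, against 0.50, 0.25 and -0.89 in VC_1. Igfbp4, which binds insulin-like growth factors, had 5.45, 5.48 and 5.72 with CDMB, against 4.85, 4.88 and 3.69 in VC_1. The first 2 controls of both genes still lay below all CDMB arrays, by a mean of 0.64 and 0.69. Igfbp2, another binding protein of these factors, and Slc2a5, a fructose transporter, were 1.19 and 1.11 higher with all arrays and 0.35 and 0.40 higher without VC_1 replicate 3.

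Among the lowest differences, Lhfpl6 had levels of 0.03, 0.18 and 0.12 with CDMB, against 1.12, 1.54 and 2.47 in VC_1. Pxdn, the peroxidase that cross-links collagen IV, had -3.17, -3.16 and -3.13 with CDMB, against -1.98, -2.09 and -0.79 in VC_1. In both, the CDMB arrays lay close together and about 1 log2 unit below even the lowest control, with differences of -1.60 and -1.53 from all arrays and -1.22 and -1.12 without VC_1 replicate 3. Mybpc3, a sarcomere protein of heart muscle, was 1.46 lower and 1.17 lower without that array. Cd44, the hyaluronan receptor, had -2.55, -2.56 and -2.61 with CDMB, against -1.98, -1.69 and -0.02 in VC_1. Anxa1, a phospholipid-binding protein, had -1.49, -1.65 and -1.62 with CDMB, against -0.80, -0.64 and 0.88 in VC_1. Again VC_1 replicate 3 was far from the other controls, and the differences of -1.34 and -1.40 were -0.74 and -0.87 without it. None of the genes in this paragraph passed the test.

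**Figure D2:**
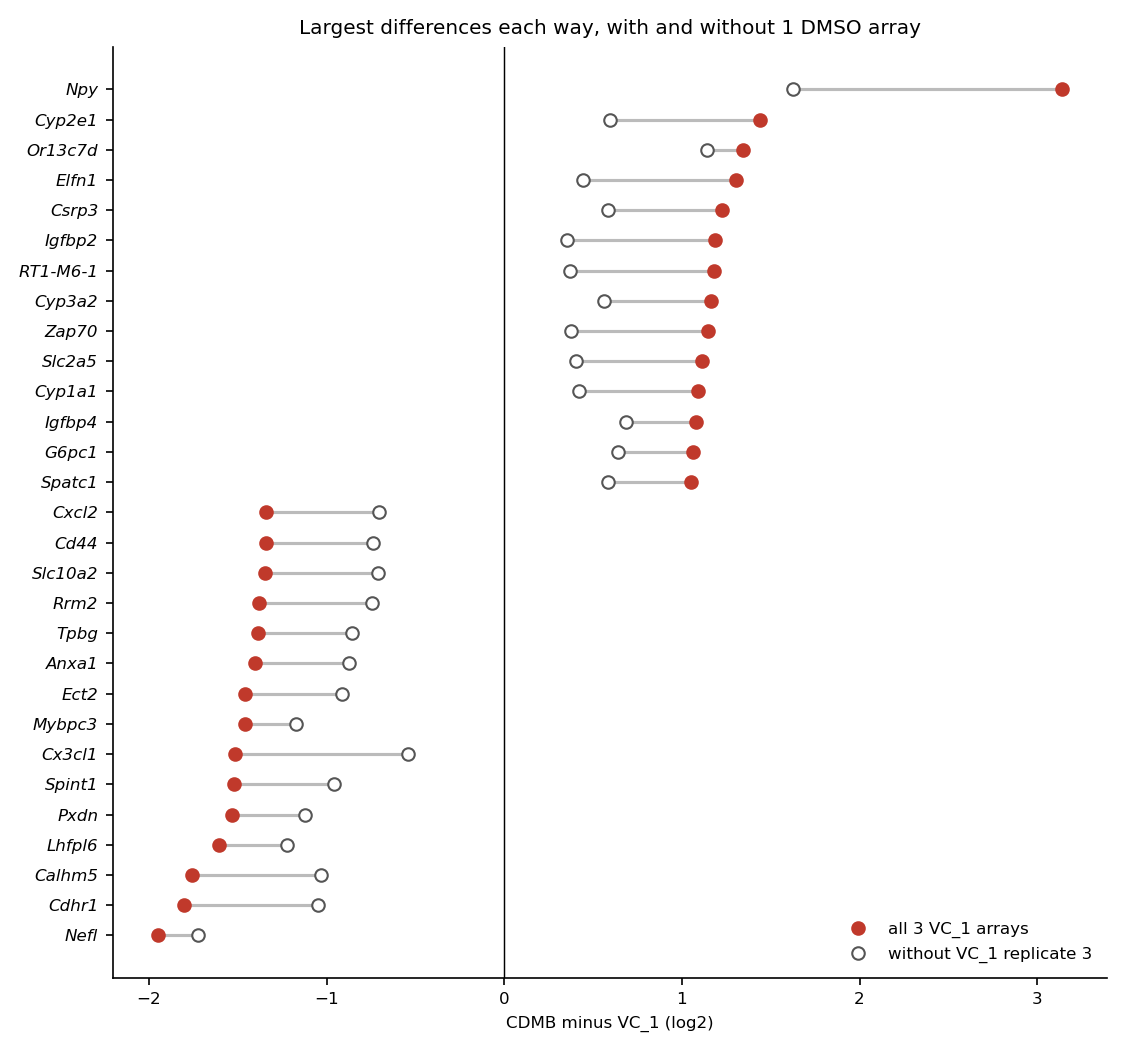
The log2 differences of 14 of the 15 highest and of all 15 lowest genes, CDMB minus VC_1, among named genes above background on all 6 arrays with no overlap between groups (vertical axis), from all 3 VC_1 arrays (filled) and without VC_1 replicate 3 (open). Every open point lies nearer to 0 than its filled point, as for Npy at 1.63 against 3.14 and Nefl at -1.72 against -1.95.

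In 27 lists of liver functions, 786 different genes were tested and 2 passed, Hspb1 and Nefm (0.0431% of all genes passed). The lists were chosen with earlier results of these data known, so this count says nothing about liver functions. The medians of the CDMB arrays lay above those of all VC_1 arrays in 8 lists and below them in 3, and overlapped in 16. VC_1 replicate 3 was the control farthest from CDMB in 21 of the 27. Over all genes the median difference was 0.01, with 11069 genes higher and 9833 lower.

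**Figure D3:**
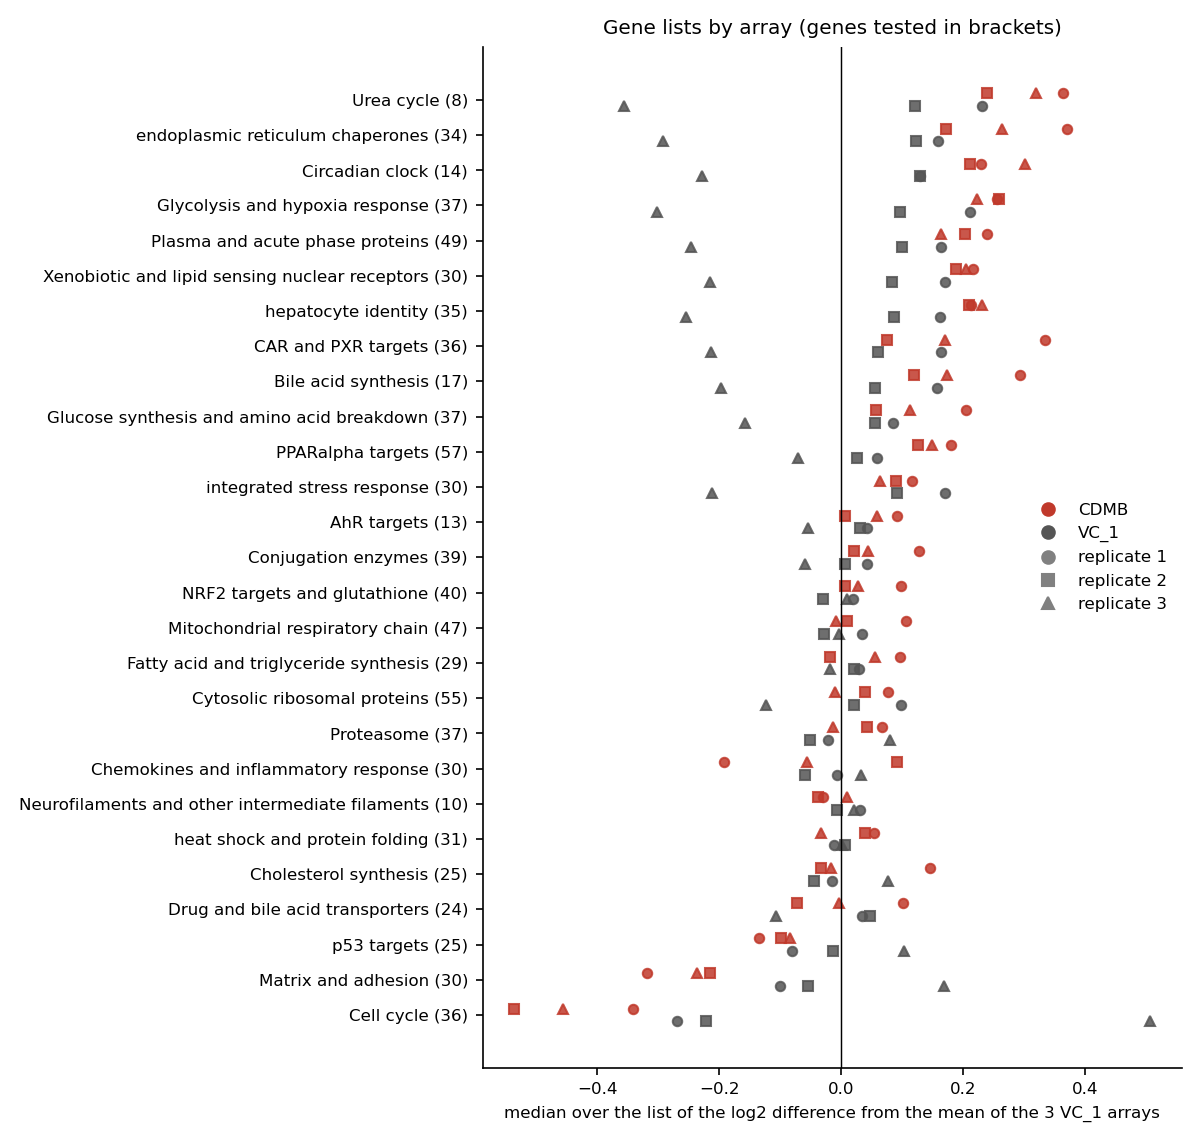
Median over each gene list of the log2 difference from the mean of the 3 VC_1 arrays, by array, for 27 lists (vertical axis, genes tested in brackets). The 3 CDMB arrays lie to the right of the VC_1 arrays for urea cycle, endoplasmic reticulum chaperone and circadian genes and to the left for cell cycle, matrix and p53 genes, and VC_1 replicate 3 lies farthest out in most lists.

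Endoplasmic reticulum chaperones and quality control genes, which fold secreted proteins and remove those that misfold, stood higher with CDMB in 31 of 34 tested members. None passed the test, and CDMB lay wholly above VC_1 for 16 (against 13.7% of all genes) and wholly below for 0. The median difference was 0.28 with all arrays and 0.14 without VC_1 replicate 3. Relative to the mean of VC_1, the list's median was 0.369, 0.172 and 0.263 on the CDMB arrays and 0.158, 0.123 and -0.292 on the VC_1 arrays. Hspa5, the master chaperone BiP, had levels of 7.46, 7.30 and 7.39 with CDMB, against 7.25, 7.24 and 6.93 in VC_1. Its groups did not overlap, and the difference was 0.24 with all arrays and 0.14 without replicate 3. Derl3, which helps to move misfolded proteins out of the endoplasmic reticulum, had 3.01, 3.03 and 2.91 with CDMB, against 2.91, 2.70 and 1.13 in VC_1. In Derl3 the lowest CDMB array equalled the highest control to 2 decimals, and 1 control array gave most of the difference of 0.74. Syvn1, a ubiquitin ligase of the same disposal route, had 3.97, 3.90 and 4.04 with CDMB, against 3.66, 3.69 and 3.00 in VC_1. Here the differences were 0.52 and, without replicate 3, 0.30. Edem1 and Herpud1, also of that route, and Ero1a, an oxidase that forms disulfide bonds, were 0.61, 0.53 and 0.55 higher, and 0.19, 0.16 and 0.15 higher without replicate 3.

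The promoters of Hspa5 and Derl3 are shown because most members of this list lay on the same side of VC_1 and both hold the endoplasmic reticulum stress element, CCAAT followed after 9 bases of any kind by CCACG, which the factor ATF6 binds together with NF-Y. It was searched on both strands and is in capitals. The sequences are the 250 bases before the start from RefSeq's GRCr8, chr3:38452766-38453015 on the plus strand for Hspa5 and chr20:12766466-12766715 on the minus strand for Derl3, where the match lies on the opposite strand.
Hspa5: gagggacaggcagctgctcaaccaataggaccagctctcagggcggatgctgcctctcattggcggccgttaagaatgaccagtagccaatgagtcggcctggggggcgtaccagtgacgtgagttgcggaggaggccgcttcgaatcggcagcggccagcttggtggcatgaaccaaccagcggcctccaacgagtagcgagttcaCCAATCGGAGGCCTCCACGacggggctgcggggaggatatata
Derl3: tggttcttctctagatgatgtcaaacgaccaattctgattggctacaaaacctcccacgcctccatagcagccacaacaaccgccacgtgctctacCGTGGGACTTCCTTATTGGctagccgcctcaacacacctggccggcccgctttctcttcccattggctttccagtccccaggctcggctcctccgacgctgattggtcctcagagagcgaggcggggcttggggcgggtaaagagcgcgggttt
The element begins 43 bases before the start in Hspa5 and 154 bases in Derl3. It occurred in 9 of the 27 promoters of the list that were found (33.3%) and in 0.0657% of all 33469 promoters. The list was made up of known genes of this pathway, so that share says nothing about CDMB. A match describes letters, not binding.

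**Figure D4:**
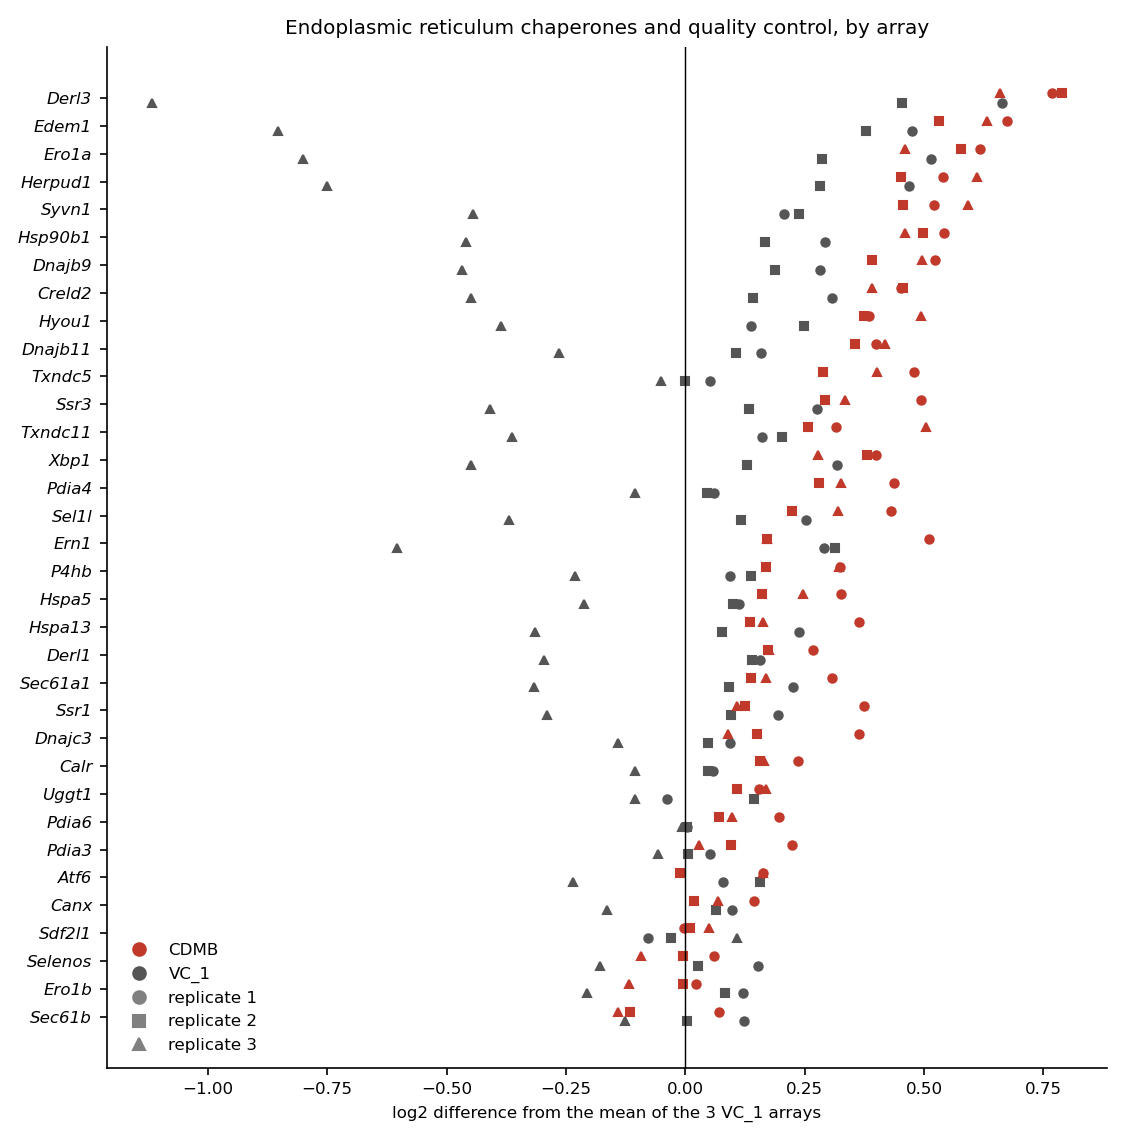
Log2 difference from the mean of the 3 VC_1 arrays (horizontal axis) for 34 endoplasmic reticulum genes on each CDMB and VC_1 array. VC_1 replicate 3 lies far to the left for Derl3, Edem1, Ero1a and Herpud1, while the other control arrays lie close to or partly among the CDMB arrays.

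The integrated stress response, which shares inputs with that pathway, did not show the same picture. Of its 30 genes, 0 passed, 1 had CDMB wholly above VC_1 and 1 wholly below (13.7% and 12.3% of all genes). That is 6.67% of the list without overlap, under the 26.0% of all genes. The median difference was 0.09, or 0.00 without VC_1 replicate 3. Ddit3, which encodes the factor CHOP, had 3.51, 3.74 and 3.25 with CDMB, against 3.27, 3.18 and 2.74 in VC_1. Atf3, an early stress factor, had 3.66, 3.77 and 3.78 with CDMB, against 3.89, 4.05 and 4.02 in VC_1. Their differences, 0.44 and -0.25, ran in opposite directions.

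Liver metabolism lists leaned higher with CDMB, with 0 genes called. Urea cycle genes were higher in 6 of 8, with CDMB wholly above VC_1 in 5 (13.7% of all genes) and a median of 0.29, or 0.14 without VC_1 replicate 3. Cps1, which commits ammonia to the cycle, had 3.79, 3.53 and 3.66 with CDMB, against 3.48, 3.39 and 1.75 in VC_1. Asl, the lyase that forms arginine, had 6.50, 6.42 and 6.40 with CDMB, against 6.31, 6.15 and 5.84 in VC_1. Both were separate from every control, by 0.22 and 0.21 on average once replicate 3 was left out. Glycolysis and hypoxia genes were higher in 34 of 37, wholly above VC_1 in 14 and wholly below in 2 (13.7% and 12.3% of all genes), with medians of 0.25 and 0.11 without replicate 3. Pfkl, the liver phosphofructokinase, had 1.87, 1.88 and 2.19 with CDMB, against 1.49, 1.53 and 1.17 in VC_1, a difference of 0.59 ± 0.14 (SE, n = 3 each; limma adjusted p = 0.161). In contrast to most genes of the list it kept a difference of 0.47 without replicate 3, whereas Slc16a3, the lactate exporter MCT4, was 1.17 higher with that array and 0.16 without it. Plasma proteins were higher in 45 of 49, with medians of 0.22 and 0.04 without replicate 3. Albumin itself, Alb, was at 8.79, 8.78 and 8.74 with CDMB, against 8.78, 8.72 and 8.37 in VC_1.

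PPARα targets, which oxidise fatty acids, were higher with CDMB in 44 of 57, wholly above VC_1 in 21 and wholly below in 4 (13.7% and 12.3% of all genes). The median was 0.15, or 0.10 without VC_1 replicate 3. Cyp4a1, a fatty acid hydroxylase and a standard marker of PPARα activation in rat liver, had 3.01, 2.92 and 3.02 with CDMB, against 2.82, 2.81 and 2.89 in VC_1. Cyp4a3 had 4.38, 4.21 and 4.31 with CDMB, against 4.14, 4.17 and 3.90 in VC_1. The groups did not overlap in either gene, at differences of 0.14 and 0.23. Plin5, a lipid droplet protein, had -2.56, -2.52 and -2.55 with CDMB, against -2.90, -2.95 and -3.69 in VC_1, and was 0.38 higher without replicate 3. Cd36, a fatty acid importer, went the other way, with a difference of -0.46. Fatty acid and cholesterol synthesis genes had medians of 0.04 and 0.00, with 0 of 29 and 0 of 25 called. Without VC_1 replicate 3 the medians were 0.00 and 0.08, and 21 of the 25 cholesterol genes were higher, against 12 with all arrays. Hsd17b7, a sterol synthesis enzyme, was the cholesterol synthesis gene farthest from 0, with 0.75, 0.58 and 0.67 with CDMB, against 0.17, 0.15 and -0.07 in VC_1.

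Among drug-metabolising genes, CAR and PXR targets were higher with CDMB in 24 of 36, with a median of 0.19, or 0.13 without VC_1 replicate 3, and 0 called. CDMB lay wholly above VC_1 for 6 (13.7% of all genes) and wholly below for 6 (12.3% of all genes). Cyp2b2, the standard CAR target in rat liver, had 5.32, 5.09 and 5.49 with CDMB, against 5.33, 5.43 and 4.57 in VC_1. The groups overlapped, and the difference of 0.19 was -0.08 without VC_1 replicate 3. Cyp3a23-3a1, a PXR target, had 7.61, 7.30 and 7.47 with CDMB, against 7.18, 7.29 and 7.32 in VC_1, 0.20 higher. Cyp2c11, a male-specific P450 of rat liver, had 3.89, 3.47 and 3.69 with CDMB, against 4.13, 4.15 and 4.47 in VC_1. It was lower on every CDMB array, by 0.57 ± 0.13 (SE, n = 3 each; limma adjusted p = 0.161) and by 0.46 without replicate 3. Aldh1a1, which makes retinoic acid, was 0.72 lower and 0.57 lower without replicate 3. Xenobiotic and lipid sensing nuclear receptors were themselves higher in 26 of 30, with medians of 0.22 and 0.11. Hnf4a, a master regulator of hepatocyte identity, had 5.14, 5.09 and 5.20 with CDMB, against 4.90, 4.83 and 4.04 in VC_1, while Ppara and Nr1i3, which encodes CAR, were 0.69 and 0.68 higher and 0.28 and 0.27 higher without replicate 3.

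AhR and NRF2 targets showed no shared direction. AhR targets were wholly above VC_1 in 4 of 13 and wholly below in 3 (13.7% and 12.3% of all genes), with a median of 0.08 that became 0.00 without VC_1 replicate 3. Cyp1a2 had 5.78, 5.77 and 5.82 with CDMB, against 5.90, 5.81 and 5.18 in VC_1, and the groups overlapped. Aldh3a1, an aldehyde dehydrogenase under AhR control, had -3.66, -3.43 and -3.45 with CDMB, against -3.05, -3.04 and -3.20 in VC_1. Its difference of -0.42 ± 0.11 (SE, n = 3 each; limma adjusted p = 0.177) did not rest on replicate 3, being -0.47 without it. NRF2 targets had a median of 0.06, with 6 of 40 wholly above and 3 wholly below, near or under the 13.7% and 12.3% of all genes. Nqo1, a quinone reductase, had 1.44, 1.25 and 1.23 with CDMB, against 1.25, 1.20 and 1.59 in VC_1. Hmox1, heme oxygenase, had 5.54, 5.55 and 5.49 with CDMB, against 5.70, 5.53 and 3.68 in VC_1. In both genes the CDMB arrays lay within the range of the controls, and the difference of 0.56 in Hmox1 was -0.09 without replicate 3.

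Of 24 transporters, 4 were wholly above VC_1 and 6 wholly below (13.7% and 12.3% of all genes), with a median of -0.05. Bile acid synthesis genes were higher in 12 of 17, wholly above VC_1 in 6 and wholly below in 1 (13.7% and 12.3% of all genes). Their median was 0.19, or 0.03 without VC_1 replicate 3, and 0 of either list passed. Abcg5, a partner in sterol export into bile, had -2.03, -2.45 and -2.41 with CDMB, against -2.82, -2.91 and -3.22 in VC_1, 0.69 ± 0.16 higher (SE, n = 3 each; limma adjusted p = 0.155). Slc22a8, the organic anion transporter OAT3, had 6.85, 6.96 and 7.01 with CDMB, against 7.35, 7.43 and 7.69 in VC_1. Both differences stayed near their size without VC_1 replicate 3, at 0.57 and -0.45. Abcb1b, a P-glycoprotein gene, was 0.64 lower, and 0.35 lower without that array. Cyp7a1, the rate-limiting enzyme of bile acid synthesis, had -0.88, -0.88 and -0.78 with CDMB, against -1.09, -1.36 and -3.18 in VC_1, so that the difference of 1.03 was 0.38 without replicate 3. Conjugation enzymes had a median of 0.07, with 9 of 39 wholly above and 0 wholly below (13.7% and 12.3% of all genes). Gstm7, a glutathione transferase, was 0.65 higher and 0.44 higher without replicate 3.

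Clock genes were higher with CDMB in 13 of 14, wholly above VC_1 in 10 and wholly below in 0 (13.7% and 12.3% of all genes), with 0 called. The median was 0.27, or 0.14 without VC_1 replicate 3. Per3, a period gene of the clock's repressor arm, had -2.18, -2.19 and -2.17 with CDMB, against -2.48, -2.46 and -2.94 in VC_1. Tef, an output factor of the clock, had 1.44, 1.32 and 1.40 with CDMB, against 1.15, 1.11 and 0.67 in VC_1. In both, every CDMB array was higher than every control, by 0.29 and 0.25 on average without replicate 3. Per2 was 0.66 higher and Cry1 0.35 higher, and 0.18 and 0.19 without that array.

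Cell cycle, matrix and p53 lists leaned lower with CDMB. Cell cycle genes were lower in 30 of 36, wholly below VC_1 in 14 and wholly above in 2 (12.3% and 13.7% of all genes), with 0 called. Relative to the mean of VC_1 the list's median was -0.342, -0.536 and -0.456 on the CDMB arrays and -0.270, -0.222 and 0.506 on the VC_1 arrays, where replicate 3 again stood alone. Ccnb1, the mitotic cyclin B1, had -4.08, -5.10 and -5.16 with CDMB, against -4.14, -3.75 and -2.38 in VC_1. Ube2c, an enzyme of the anaphase-promoting complex, had -4.55, -5.94 and -4.93 with CDMB, against -3.59, -4.14 and -2.63 in VC_1, and 2 of its 3 CDMB values were well above background. Rrm2, a ribonucleotide reductase subunit made in S phase, was 1.38 lower, and 0.75 lower without replicate 3.

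Matrix and adhesion genes were wholly below VC_1 in 13 of 30 and wholly above in 4 (12.3% and 13.7% of all genes), with a median of -0.26, or -0.14 without VC_1 replicate 3. Timp2, a metalloproteinase inhibitor, had 1.30, 1.57 and 1.46 with CDMB, against 2.22, 2.44 and 2.86 in VC_1, a difference of -1.06 ± 0.25 (SE, n = 3 each; limma adjusted p = 0.156). Ogn, the matrix proteoglycan osteoglycin, had -2.67, -3.34 and -3.24 with CDMB, against -2.29, -2.23 and -2.00 in VC_1. Both were lower than every control, and -0.89 and -0.82 without replicate 3. Col4a1 and Bgn, basement membrane collagen and biglycan, were 0.79 and 0.84 lower. The summed stellate cell markers, some of which belong to this list too, were lower on every CDMB array. The gap was narrow, with 1.354 on the highest CDMB array and 1.357 on the lowest VC_1 array. Of the 8 markers tested, 3 were higher and 5 lower with CDMB, and their part was not tested.

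Of the p53 targets, 18 of 25 were lower, 9 wholly below VC_1 and 2 wholly above (12.3% and 13.7% of all genes), with a median of -0.10, or -0.04 without VC_1 replicate 3. Cdkn1a, the cell cycle inhibitor p21, was among the exceptions, with 5.25, 5.35 and 5.45 with CDMB, against 5.09, 5.00 and 4.29 in VC_1. Mdm2, the ligase that degrades p53, had 1.79, 1.81 and 1.80 with CDMB, against 1.88, 1.86 and 2.05 in VC_1. Bax and Bbc3, which promote apoptosis, and Phlda3 were 0.38, 0.47 and 0.45 lower. None of these genes passed the test.

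Housekeeping complexes and inflammatory genes had medians close to that of all genes. Respiratory chain, proteasome and cytosolic ribosome lists had medians of 0.04, 0.03 and 0.03, with 7 of 47, 6 of 37 and 4 of 55 genes wholly above VC_1 and 0 below in each, against 13.7% and 12.3% of all genes. Chemokine and inflammatory genes had a median of 0.02, with 3 of 30 wholly above and 5 below (13.7% and 12.3% of all genes). Ccl2, the monocyte attractant, had -0.97, -1.83 and -3.05 with CDMB, against -1.87, -0.83 and 2.01 in VC_1, so that both groups spread widely.

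CDMB was next set against CDEB, which shared its slide, dose and time, and against DDMB, which shared dose and time but not the slide. In these 2 pairs, p-values were adjusted over the 20902 genes of each. Against CDEB, 0 genes passed in limma (0.00%), 980 (4.69%) had an unadjusted p under 0.05, and the CDMB arrays lay wholly on one side of the CDEB arrays for 19.9%. Cyp4a1 had levels of 3.01, 2.92 and 3.02 with CDMB, against 3.61, 3.62 and 3.65 with CDEB, a difference of -0.64 with a 95% interval of -0.95 to -0.34 (limma adjusted p = 0.357). Cyp4a3 had 4.38, 4.21 and 4.31 with CDMB, against 4.72, 4.66 and 4.70 with CDEB, a difference of -0.39 with an interval of -0.61 to -0.18. CDMB was lower on every array in both genes. Ehhadh, the bifunctional enzyme of peroxisomal β-oxidation, Scd, the stearoyl-CoA desaturase, and Loxl2, a collagen cross-linking oxidase, were chosen after their values were seen. They were 0.61, 0.35 and 0.78 lower with CDMB than with CDEB, with limma adjusted p of 0.104, 0.218 and 0.102. For Hspb1 the difference from CDEB was 0.39, with an interval of 0.16 to 0.62 and a limma adjusted p of 0.535, and for Nefm it was -1.05, with an interval of -1.57 to -0.52.

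Against DDMB, 176 genes passed in limma (0.842%), 97 higher (0.464%) and 79 lower (0.378%) with CDMB, of which 50 and 45 had a plain symbol. The count was 0 from the 6 CDMB and DDMB arrays alone or with the slide as a random block, 559 without DDMB replicate 1, and 23 to 98 without any other of the 6 arrays. Cyp2b2 had levels of 5.32, 5.09 and 5.49 with CDMB, against 4.02, 3.25 and 4.15 with DDMB, and was 1.49 ± 0.29 higher (SE, n = 3 each; limma adjusted p = 0.0288). Cxcl12, a chemokine, had -0.69, -0.73 and -0.75 with CDMB, against -1.54, -1.70 and -1.57 with DDMB. Masp1, a protease of the lectin complement pathway, had 0.92, 0.85 and 1.03 with CDMB, against 0.15, -0.02 and -0.04 with DDMB. In these 3 genes CDMB lay above DDMB on every array, whereas the CDMB and VC_1 values of Cyp2b2 and Masp1 overlapped. Reg4 and Col5a3, a collagen V chain, were also higher with CDMB than with DDMB, by 1.22 and 0.88, with limma adjusted p of 0.0495 and 0.0125.

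Genes lower with CDMB than with DDMB were led by Cyp4b1, a P450 that hydroxylates fatty acids and activates some xenobiotics. It had -4.06, -4.20 and -3.93 with CDMB, against -2.79, -1.43 and -1.31 with DDMB, a difference of -2.22 ± 0.35 (SE, n = 3 each; limma adjusted p = 0.0112). Pck1, the rate-limiting enzyme of glucose synthesis, had -3.75, -3.50 and -3.41 with CDMB, against -2.65, -2.13 and -2.30 with DDMB. Ltbp1, Akr1c15 and Atp6v0d2, a matrix protein that binds latent TGF-β, an aldo-keto reductase and a proton pump subunit, differed by -1.15, -0.73 and -0.72. In Cyp4b1 and Pck1 the CDMB arrays lay close to VC_1 and apart from DDMB.

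Of the 811 members of the function and marker lists tested, 12 passed against DDMB, where 0.842% of all genes did, among them Lyz2, which encodes a lysozyme of macrophages. Mgst3, a microsomal glutathione transferase, had 6.04, 5.94 and 6.02 with CDMB, against 5.61, 5.51 and 5.57 with DDMB. Acss2, which makes acetyl-CoA from acetate, had 1.23, 1.24 and 1.18 with CDMB, against 0.89, 0.38 and 0.48 with DDMB. Both were higher on every CDMB array, Acss2 by 0.63. Abcc2, the canalicular export pump MRP2, had 7.99, 7.93 and 7.97 with CDMB, against 8.36, 8.77 and 8.75 with DDMB. Ass1 and Gls2, of the urea cycle and glutamine breakdown, and Crat, a carnitine acyltransferase, were 0.42, 0.33 and 0.35 lower with CDMB than with DDMB. For Hspb1 the difference from DDMB was -0.06, with a 95% interval of -0.29 to 0.17, for Eif4ebp3 it was -0.02, with an interval of -0.19 to 0.15, and for Nefm it was 0.03, with an interval of -0.50 to 0.55. These intervals bound the differences and do not show that the compounds act alike. The slide differs between CDMB and DDMB, and its part cannot be told apart from that of the compound.

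**Figure D5:**
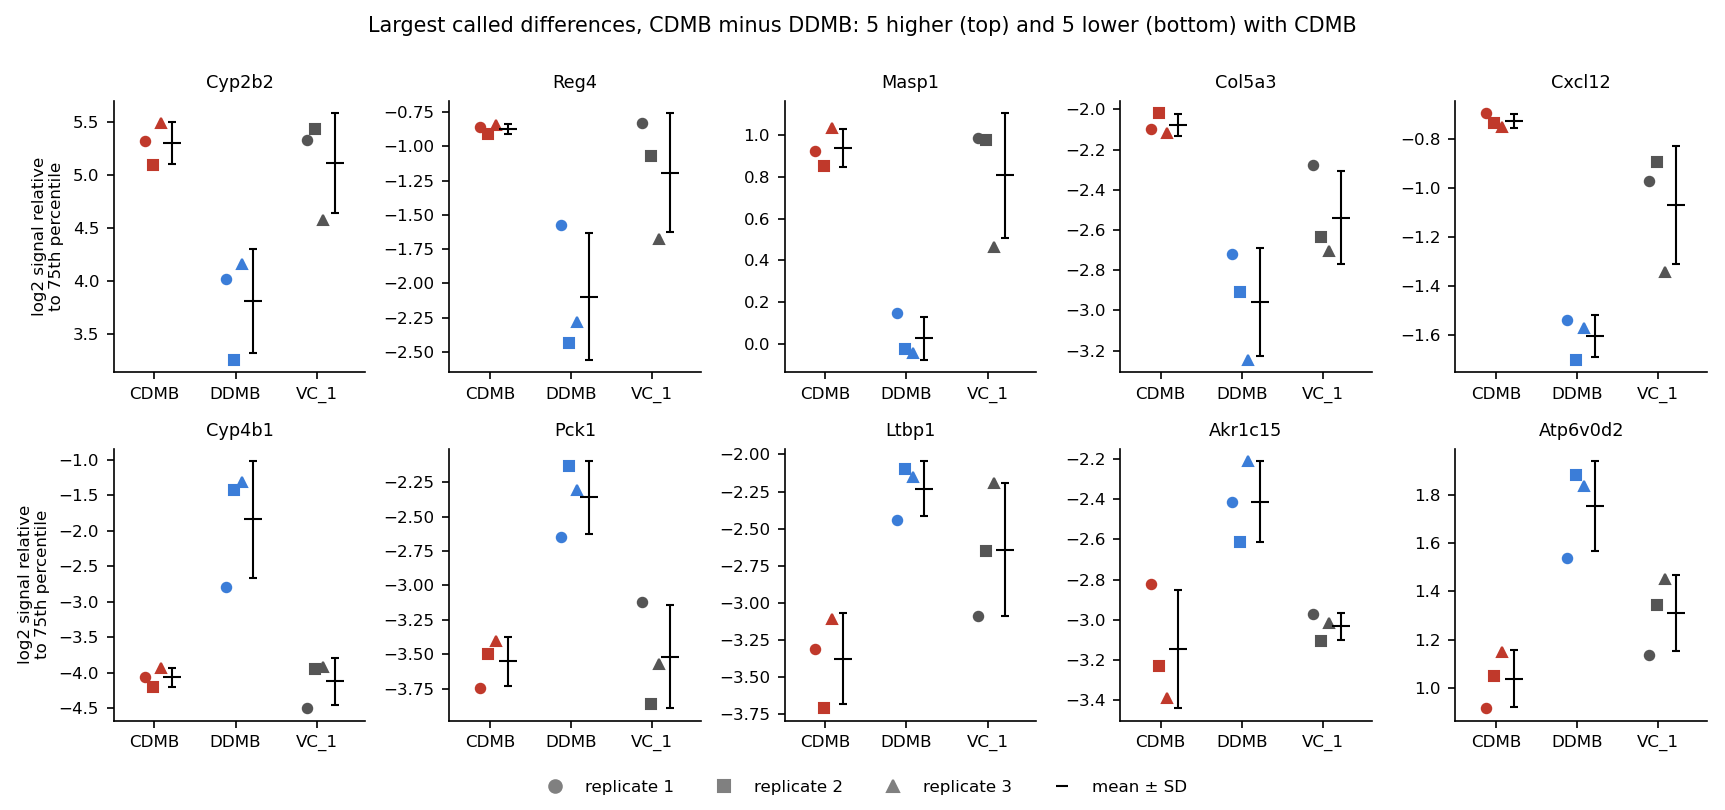
Log2 signal relative to the array's 75th percentile for the 5 highest (top) and 5 lowest (bottom) differences, CDMB minus DDMB, among named genes that passed, on each CDMB, DDMB and VC_1 array, with the mean ± SD of 3 arrays. The DDMB arrays stand apart from the CDMB arrays in all 10 genes, and for Cyp4b1 and Pck1 the CDMB arrays lie beside the VC_1 arrays.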

How the data were processed

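Total RNA was labelled with Cy3 and hybridised to 18 one-colour Agilent arrays, 1 per labelled sample. Whether same-numbered arrays of the DMSO controls came from separate cultures is not told by the labels. Per the file headers, the scanner files hold processed intensity per spot, already background-subtracted by the scanner software. The authors deposited a separate table of scaled signal per probe, used here as an alternative. Only its values over 1 were compared, after each array's median offset was taken out. All of these lay within 1% of the processed intensity divided by the array's 75th percentile. Its dimmer values were not compared, and its column medians were 0.045 to 0.051. The values tested are log2 of the deposited processed intensity, averaged over unflagged spots, minus log2 of the array's 75th percentile. Control spots and 435 probes flagged as outliers were left out, and 24563 of 45163 probes passed the background filter. A gene is its brightest kept probe. Names came from RefSeq identifiers for 21109 of 45598 probes; the rest keep the array's identifiers. One linear model per gene over all 18 arrays was fitted in limma 3.58.1 (R 4.3.3) with Benjamini-Hochberg adjustment, and slide blocks used an estimated correlation of 0.462. The fit was tested on simulated data with known changes. The normexp alternative used median spot and background signals, because the files hold no mean signal column. The number of arrays limits the precision.

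Genes are named by rule: those that passed with a plain symbol, the 15 highest and 15 lowest non-overlapping differences, the 10 smallest p, up to 5 members per list, a set of known responders, and for each further pair the 5 largest called differences each way. Members and lists were chosen with earlier results of these data known. Same-numbered CDMB and VC_1 arrays deviated from their group means with correlations of only 0.025 to 0.064, so the numbers were not taken to pair them. The VC_2 table was not used here, and 3 genes that the rules or lists would name are not reported here.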

Additional observations from a re-analysis of the deposited data

How the results depend on the processing

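CDMB against VC_1 gave 9 genes in the fit described, 8 with quantile normalization (7 shared), 8 when all 6 arrays had to lie above background, 9 when any group could, and 11 with each probe tested alone. It gave 0 from the 6 arrays alone, with the slide as a random block, with the array median in place of the 75th percentile, and without a filter on dim probes, 3 with normexp background correction and 1 from the deposited table. Leaving out 1 array at a time gave 0 to 5 genes. Against VC_2 it gave 6231 and against the mean of both controls 3018, both across chip lots. In the same fit, the 2 DMSO controls set against each other gave 4261 of 20902 genes (20.4%). CDMB against CDEB gave 0, and 0 to 1 with 1 array left out. CDMB against DDMB gave 176, but 0 from the 6 arrays alone, 0 with the slide as a random block, 91 with normexp, 45 without a filter, and 23 to 559 with 1 array left out. Without the 3 VC_2 arrays, an alternative chosen after seeing the data, the counts were 11, 0 and 106. The cause of these shifts was not tested. With the replicate number as a block, which the labels do not show to be a pairing, CDMB against VC_1 gave 20 genes, among them all 9, CDMB against CDEB 0, and CDMB against DDMB 423. Of the genes with an unadjusted p under 0.05, 53.3% were higher with CDMB than in VC_1, but 38.2% with array medians.

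Among named genes, the sign of the difference from VC_1 turned when 1 array was left out for Pck1 (-0.207 to 0.164), Akr1c15 (-0.278 to 0.0052), Cyp4b1 (-0.130 to 0.161), Lyz2 (-0.067 to 0.024), Cyp2b2 (-0.080 to 0.353), Cyp1a2 (-0.063 to 0.296), Nqo1 (-0.115 to 0.077), Hmox1 (-0.087 to 0.922) and Masp1 (-0.041 to 0.219). With normexp it turned for Pck1 (0.078) and Akr1c15 (0.043). Another probe of the same gene gave the opposite sign for Lyz2 (0.068), Zbtb1 (-0.291), Spetex2f (0.561) and Cxcl12 (-0.270). Against VC_2 it turned for Per3 (-0.643), Lyz2 (0.065), Col5a3 (-0.422) and Atp6v0d2 (0.074), and against both controls for Per3 (-0.098) and Lyz2 (0.018). Nefm lies near background, so the size of its difference is uncertain.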

Other observations

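Same-numbered arrays of the 2 DMSO controls resembled each other closely. After the shift between the 2 group means was taken out gene by gene, same-numbered VC_2 and VC_1 arrays differed by a median of 0.0468, 0.0388 and 0.0457 (log2) for replicates 1, 2 and 3. Npy had levels of 3.45, 2.38 and -1.63 in VC_2 and 3.30, 2.23 and -1.77 in VC_1, and Cyp2e1 was low on replicate 3 of both, at -1.43 in VC_2 and -1.10 in VC_1. Cdhr1 was high there, at -0.13 in VC_2 and -0.05 in VC_1. The deviations of same-numbered CDMB and VC_1 arrays correlated at no more than 0.064 across genes. Whether the 2 controls share cultures was not tested.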
